A study of Homo sapiens with 30 samples.

Results

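The 33 genes described here are targets of p53, the transcription factor that answers DNA damage and other stresses. They were taken by symbol from a fixed list, out of 25680 gene symbols in the deposited tables, and each is represented by its transcript with the highest mean count. All 33 were found in the tables, and 31 passed the filter on low counts. GDF15, a secreted stress cytokine, and SPATA18, which takes part in the clearance of damaged mitochondria, did not pass it and were not tested.

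RNA was sequenced from 2 human multiple myeloma cell lines, H929 and OPM2, after 24 h in 100 nM dBRD9-A or in DMSO, the solvent. dBRD9-A is a small molecule that leads to the degradation of BRD9, a bromodomain protein of a BAF-type chromatin remodeller. The 4 groups are H929 with dBRD9-A, H929 with DMSO, OPM2 with dBRD9-A and OPM2 with DMSO, each of 3 libraries. The series asked how transcripts of these lines respond to the compound, and the comparisons below follow from its design. Each line stands for itself alone, and the lines differ in many ways, so the cause of a difference between them cannot be told apart.

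In unstressed cells p53 is kept scarce by MDM2, a ubiquitin ligase that is itself a p53 target, so the pathway holds a feedback loop. When damage kinases free p53 from MDM2, it binds paired decamers of DNA near its targets and raises their transcription. The products halt the cell cycle, repair DNA, adjust metabolism and autophagy, or promote cell death, and some of them switch the signal off again. Many of these genes are also driven by other factors, so a change in one of them is not by itself a reading of p53 activity.

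In the promoter windows of RefSeq (GRCh38.p14, 250 bases before to 50 after each start) a full p53 response element lay in 7 of the 28 members that have a window, or 25% of them. The same search found one in 1.37% of 27305 genes, and in 1.12% of 35116 windows. The element is 2 decamers of 10 bases with no spacer, with both the C and the G of each CNNG core in place and at most 3 mismatches to the consensus. It was searched on both strands, which read alike for this motif, and overlaps with other motifs were not searched. A match describes letters and shows no binding. The elements of 6 of these members are shown, with the element in capitals and RefSeq bases around it in lower case. Whether p53 acts through these sites was not tested.

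MDM2 (chr12:68808903-68808962, plus strand): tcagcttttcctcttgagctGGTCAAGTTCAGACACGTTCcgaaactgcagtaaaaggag
AEN (chr15:88621286-88621339, plus strand): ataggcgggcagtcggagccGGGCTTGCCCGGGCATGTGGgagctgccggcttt
SESN1 (chr6:109008998-109009057, minus strand): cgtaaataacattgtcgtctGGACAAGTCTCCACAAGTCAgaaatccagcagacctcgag
DDB2 (chr11:47214949-47214988, plus strand): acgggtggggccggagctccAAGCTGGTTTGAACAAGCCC
FDXR (chr17:74872995-74873035, minus strand): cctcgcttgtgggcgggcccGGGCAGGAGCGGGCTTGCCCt
FAS (chr10:88991289-88991348, plus strand): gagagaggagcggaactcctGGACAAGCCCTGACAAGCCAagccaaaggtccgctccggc

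The DDB2 element had 1 mismatch, those of MDM2, AEN and FAS had 2, and those of SESN1 and FDXR had 3. They lay within 122 bases of a start that RefSeq lists, and the DDB2 element ran across such a start, from -5 to 15. MDM2, SESN1, DDB2, FDXR and FAS also have listed starts whose windows held no match. Which start the counted transcripts use was not examined. GDF15 held the other match, and 5 members, TP53INP1, RRM2B, PHLDA3, GADD45A and FBXO22, were not among the windows used here.

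Levels per sample are given as CPM, counts scaled to library size by the TMM factors. The libraries held 42895389 to 76600945 counts, apart from OPM2 dBRD9-A replicate 2 with 24524193. This library also stood apart in composition. Its log2 deviation from its group mates had an SD of 0.85 over 10526 genes, against 0.15 to 0.25 in the 9 libraries of the other groups. Across genes this deviation fell as transcript GC content rose (Spearman -0.69; -0.63 over 25 members). Links of like size stood in H929 dBRD9-A replicate 1 (-0.59) and replicate 2 (0.63), whose deviations were small, with SDs of 0.21 and 0.25. The OPM2 library enters the spread used in every test, and counts of calls after dBRD9-A are given with and without it. The 8 plasma cell markers summed to 5224 to 5476 CPM in H929 with dBRD9-A and 6126 to 6797 CPM in H929 with DMSO. In OPM2 they summed to 3821 to 5221 CPM with dBRD9-A and 5249 to 6036 CPM with DMSO. These markers did not move alike. IRF4, MZB1 and SLAMF7 were lower in every treated library of both lines. XBP1 was higher in every treated OPM2 library and lower in every treated H929 library. TNFRSF17 was lower in H929 and overlapped in OPM2, and PRDM1, CD38 and SDC1 overlapped in both lines. SDC1 had 1121, 261 and 1219 CPM in OPM2 with dBRD9-A, against 1092, 904 and 1076 CPM in OPM2 with DMSO. The sum of 3821 CPM is that of replicate 2, where SDC1 was low. Markers of T cells, monocytes, B cells, stroma and epithelium stayed under 1.35 CPM in sum in every OPM2 library, and CD3E, KRT8, KRT18 and CSF1R averaged above 1 CPM in H929 with DMSO. In H929 the 3 T cell markers summed to 36.7 to 39.6 CPM with dBRD9-A and 23.3 to 25.6 CPM with DMSO, nearly all of it CD3E, and the 4 epithelial markers to 15.6 to 24.8 CPM with dBRD9-A and 8.38 to 11.2 CPM with DMSO. These markers thus moved with treatment in H929, and their part in the results below was not tested. In bulk RNA fewer cells of a kind and less RNA per cell cannot be told apart.

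**Figure D1:**
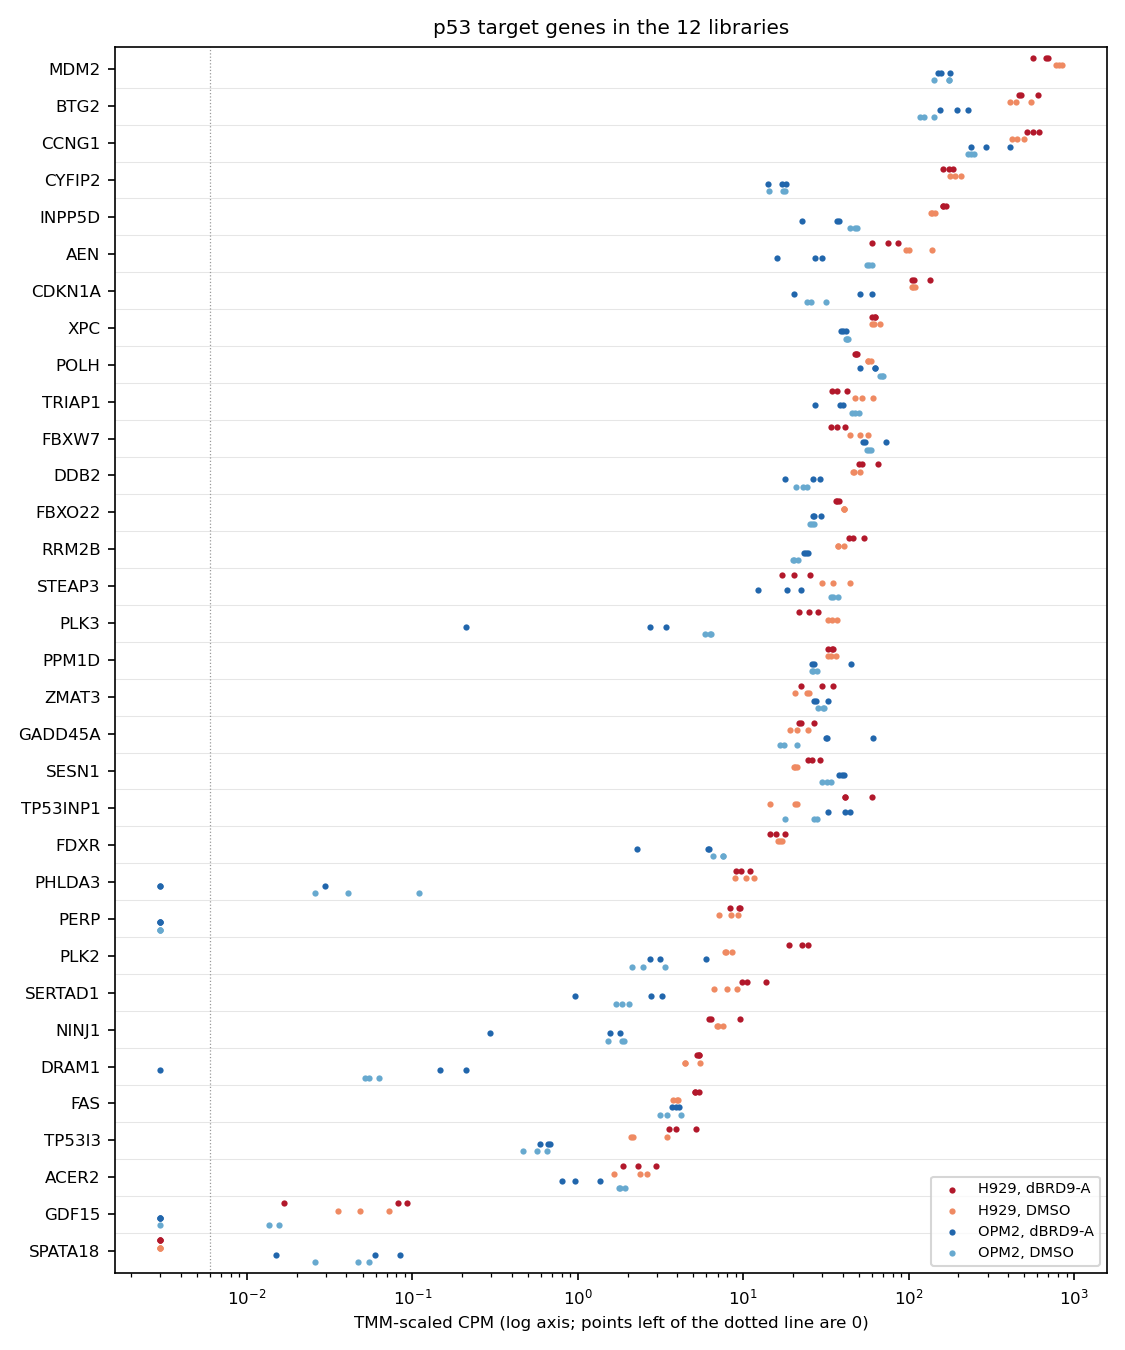
Levels of the 33 genes in the 12 libraries, as TMM-scaled CPM on a log axis, in order of their level in H929 with DMSO. Each point is 1 library, and points left of the dotted line are 0. PERP, PHLDA3 and DRAM1 sit near 5 to 12 CPM in H929 and at or near 0 in OPM2.

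Per unit of transcript length, the deposited TPM values put CCNG1, BTG2 and MDM2 at the top in H929 with DMSO. CCNG1, cyclin G1, stood at 170.2 ± 13.7 TPM, BTG2 at 159.6 ± 30.1 and MDM2 at 99.6 ± 8.08 (SD, n = 3). The CCNG1 and BTG2 levels do not differ beyond their spread. In OPM2 with DMSO CCNG1 again led with 99.8 ± 3.62 TPM, followed by BTG2 with 48.9 ± 4.80, TRIAP1 with 41.5 ± 1.81 and MDM2 with 22.6 ± 2.46. The lowest tested members in OPM2 were PERP, DRAM1 and PHLDA3, each under 0.04 TPM on average.

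In DMSO more p53 targets were called higher in H929 than in OPM2 and none was called lower. Of the 31 tested, 15 were called higher and 0 lower, at an adjusted p under 0.05 and a log2 fold change of 1 or more in size (edgeR quasi-likelihood test, Benjamini-Hochberg over 16408 genes). Over all genes tested, 21.4% were called higher in H929 and 15.0% lower. The median log2 fold change was 0.94 over the members and 0.05 over all genes. PERP, PHLDA3 and DRAM1 passed the count filter only through H929, so they had to differ, and the counts that hold them are a description. Over the 28 members that the filter keeps in each line alone, a restriction chosen after the data were seen, 12 were called higher and 0 lower, against 16.1% and 13.3% of the 14058 genes kept in the same way. Their median log2 fold change was 0.92, against 0.01 over those genes. With the fold threshold dropped, 20 members were higher and 2 lower, against 32.6% and 27.5% of all genes.

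The feedback gene MDM2 had 775, 807 and 844 CPM in H929 with DMSO, against 174, 142 and 175 CPM in OPM2 with DMSO. The lowest H929 library stood far above the highest OPM2 library. Its log2 fold change was 2.30 ± 0.13 (SE; edgeR adjusted p = 1.45e-08). None of the other feedback members was called. PPM1D, the WIP1 phosphatase that dampens p53 signalling, averaged 34.3 ± 1.79 CPM in H929 and 26.8 ± 1.04 CPM in OPM2 (SD, n = 3 each), and its adjusted p was 0.0976 in edgeR. FBXO22, an F-box protein of a ubiquitin ligase, had a log2 fold change of 0.64 ± 0.09, under the fold threshold. FBXW7, the F-box protein that takes cyclin E and MYC to degradation, had -0.18 ± 0.14 and was not called.

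Of the 7 cell cycle members, CDKN1A, BTG2, PLK2, PLK3 and SERTAD1 were called higher in H929. CDKN1A, which encodes the cyclin-dependent kinase inhibitor p21, had 109, 106 and 104 CPM in H929, against 31.9, 24.5 and 25.7 CPM in OPM2. These groups lie wide apart, with a log2 fold change of 1.96 ± 0.30 (edgeR adjusted p = 9.98e-05). BTG2, an antiproliferative partner of the deadenylase complex, had 446, 409.9 and 546 CPM in H929, against 143, 117 and 125 CPM in OPM2. Its log2 fold change was 1.87 ± 0.17. PLK3, a polo-like kinase of the stress response, had 32.4, 37.1 and 34.6 CPM in H929, against 5.91, 6.26 and 6.37 CPM in OPM2. The kinase PLK2 had 8.55, 7.92 and 7.75 CPM in H929, against 2.47, 3.36 and 2.14 CPM in OPM2. None of these groups overlapped. PLK3 had a log2 fold change of 2.49 ± 0.45 and PLK2 of 1.60 ± 0.26. SERTAD1, a binding partner of cyclin-dependent kinase, had one of 2.09 ± 0.31. CCNG1 reached 0.94 ± 0.17, just under the fold threshold, and GADD45A, a growth arrest protein, 0.22 ± 0.23.

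Among the death genes, the widest gaps were in genes that OPM2 hardly expressed. PERP, a membrane protein that promotes apoptosis, had 9.30, 7.14 and 8.38 CPM in H929 with DMSO and no count in any OPM2 library. With 3 counts set as the floor over the OPM2 group, it was at least 592-fold higher in H929, a bound that covers counting error only. PHLDA3, an inhibitor of AKT, had 649, 654 and 493 counts in H929, against 7, 3 and 2 counts in OPM2, a log2 fold change of 7.46 ± 0.37. CYFIP2, a subunit of the WAVE actin complex, had 192, 179 and 206 CPM in H929, against 17.8, 17.4 and 14.2 CPM in OPM2. It was the largest difference among members that are counted well in both lines, with a log2 fold change of 3.54 ± 0.14 (edgeR adjusted p = 7.52e-10). ADAM19, which overlaps exons of CYFIP2 on the other strand, averaged 7753 counts, and without the strand setting of the counting, reads of the pair cannot be told apart. AEN, an apoptosis-enhancing nuclease, stood at 0.94 ± 0.22, under the fold threshold, and the death receptor FAS at 0.12 ± 0.15. TP53INP1, a stress protein linked to cell death and autophagy, was among the 5 members with a negative fold change (-0.38 ± 0.22, edgeR adjusted p = 0.155).

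Of the 4 repair genes, 1 was called. DDB2, which recognises ultraviolet damage, had 50.7, 47.1 and 46.4 CPM in H929, against 23.1, 20.97 and 24.4 CPM in OPM2. Its log2 fold change of 1.07 ± 0.17 was the smallest of the 15, and it fell under the fold threshold with library size alone, with the GC trend removed and without H929 DMSO replicate 1, the lowest of these being 0.91. RRM2B, a ribonucleotide reductase subunit, stood at 0.90 ± 0.11 and XPC, a damage sensor of nucleotide excision repair, at 0.57 ± 0.09, both under the fold threshold. POLH, the translesion polymerase eta, was slightly lower in H929 at -0.26 ± 0.10 (edgeR adjusted p = 0.0466). Exons of XPC overlap those of LSM3 and exons of POLH those of GTPBP2 on the other strand, and both partners are well expressed, with means of 5042 and 3169 counts.

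The remaining members are enzymes, autophagy and membrane genes. DRAM1, a lysosomal protein of autophagy, had 277, 309 and 247 counts in H929, against 4 counts in each OPM2 library. TP53I3, a quinone oxidoreductase, had 216, 122 and 116 counts in H929, against 36, 34 and 50 counts in OPM2, with a log2 fold change of 2.20 ± 0.26. Both were thus low in OPM2, and DRAM1 was near absent there. INPP5D, the inositol phosphatase SHIP of blood cells, had 139, 136 and 143 CPM in H929, against 48.9, 44.1 and 47.2 CPM in OPM2 (log2 fold change 1.58 ± 0.16). NINJ1, a protein of plasma membrane rupture, had a log2 fold change of 2.03 ± 0.37. FDXR, the mitochondrial ferredoxin reductase, had 1.21 ± 0.27, and 0.95 with the GC trend removed. SESN1, a sestrin that restrains mTORC1, went the other way, with 20.6, 20.3 and 21.05 CPM in H929, against 32.1, 30.1 and 33.9 CPM in OPM2 (log2 fold change -0.63 ± 0.10, edgeR adjusted p = 0.000194). ZMAT3, TRIAP1, ACER2 and STEAP3 were not called, with values of -0.36 to 0.28.

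**Figure D2:**
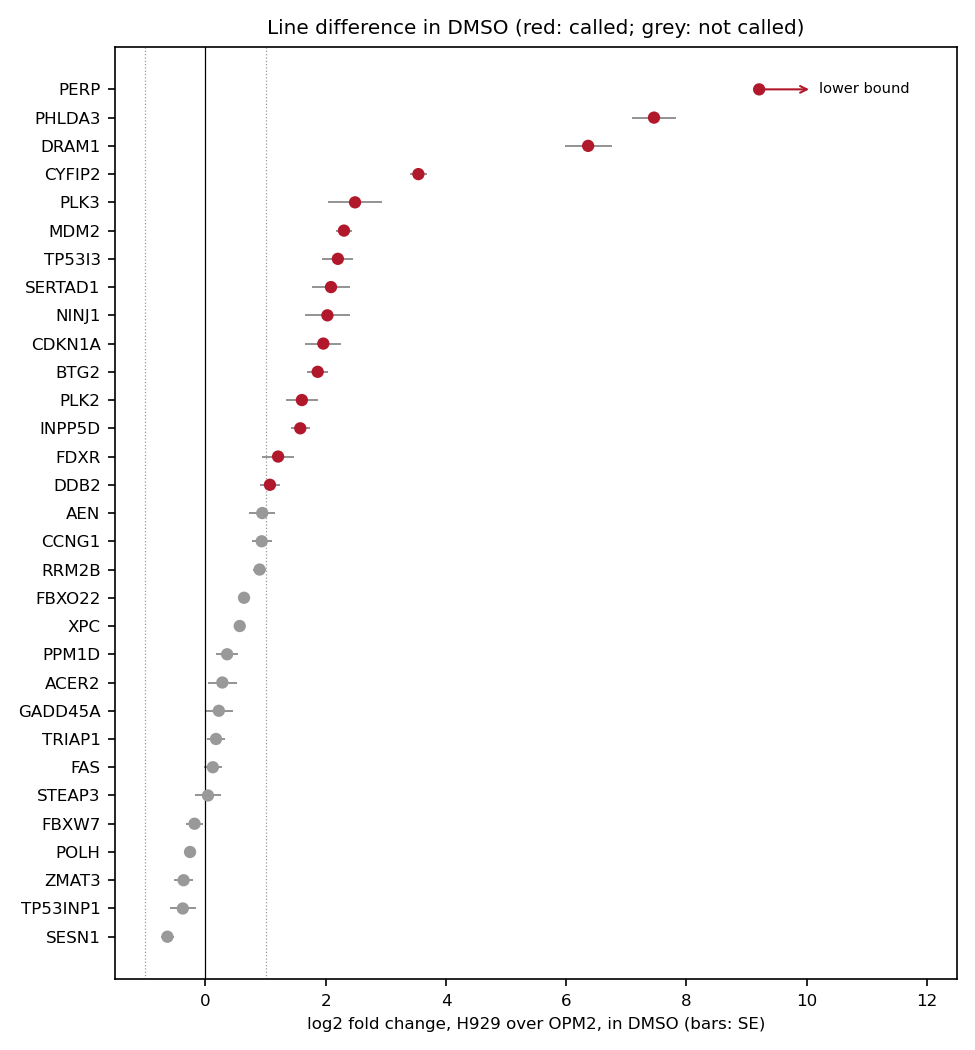
Log2 fold change of the 31 tested genes in DMSO, H929 over OPM2, with its SE. Red points are called at an adjusted p under 0.05 and an absolute value of at least 1 (dotted lines), and PERP is drawn at its lower bound. The calls run from DDB2 at 1.07 upward, and none lies on the lower side.

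In all, 21 members did not overlap between the lines in the upward direction and 3 in the downward one, against 41.5% and 37.2% of all genes. Over the 28 members kept in each line alone these were 18 and 3, against 39.3% and 38.5% of genes. The count of 15 was 14 with library size alone, the scaling that moves the median of all genes to -0.07, and 15 in each fit that left out 1 library. Without OPM2 dBRD9-A replicate 2 it stood against 21.6% of all genes called higher.

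In H929, the share of p53 targets called after dBRD9-A was near that of all genes in the fit of all 12 libraries. This depended on the fit, and without OPM2 dBRD9-A replicate 2 the share was above that of all genes, as given below. Of the 31 tested, 3 were called higher and 1 lower, or 9.68% and 3.23%, against 7.33% and 5.67% of all genes. Calls in either direction took 13.0% of all genes. The members' median log2 fold change was 0.12, against 0.00 over all genes. Without regard to the test, 9 members lay higher in every treated library and 8 lower, against 22.0% and 23.6% of all genes. The genes called higher were PLK2, TP53INP1 and SESN1, and STEAP3 was called lower. CDKN1A, MDM2, BTG2 and GADD45A were not called.

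PLK2 had 24.6, 18.995 and 22.5 CPM in H929 with dBRD9-A, against 8.55, 7.92 and 7.75 CPM in H929 with DMSO. Every treated library exceeded every DMSO library more than 2-fold. Its log2 fold change was 1.45 ± 0.25 (edgeR adjusted p = 0.0038). TP53INP1 had 60.0, 41.1 and 41.5 CPM with dBRD9-A, against 20.5, 14.4 and 21.05 CPM with DMSO. The groups do not overlap, although treated replicate 1 stands above its mates, and the log2 fold change was 1.35 ± 0.22 (edgeR adjusted p = 0.00266). Both genes kept their calls in all 21 alternative fits. SESN1 had 29.1, 24.7 and 25.99 CPM with dBRD9-A, against 20.6, 20.3 and 21.05 CPM with DMSO. The groups do not overlap, but the log2 fold change of 0.36 ± 0.10 (edgeR adjusted p = 0.0387) lost its call in 11 of the 21 fits, with adjusted p-values up to 0.13.

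STEAP3, a metalloreductase of iron uptake, had 17.2, 20.3 and 25.3 CPM in H929 with dBRD9-A, against 29.98, 44.4 and 35.0 CPM in H929 with DMSO. The groups are apart, with a log2 fold change of -0.80 ± 0.22 (edgeR adjusted p = 0.0302). The call was lost in 5 of the 21 fits, those without H929 DMSO replicate 2 or 3, without H929 dBRD9-A replicate 1 or 2, and with library size alone, at adjusted p-values up to 0.183. CDKN1A and MDM2 were not called. CDKN1A had 105, 134 and 107.9 CPM with dBRD9-A, against 109, 106 and 104 CPM with DMSO, and the groups overlap (log2 fold change 0.12 ± 0.29). MDM2 had 694, 562 and 681 CPM with dBRD9-A, against 775, 807 and 844 CPM with DMSO. All 3 treated libraries lay below the DMSO ones, but the log2 fold change of -0.32 ± 0.12 was not called (edgeR adjusted p = 0.105).

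Several further members came near the threshold in H929. TRIAP1, a small inhibitor of apoptosis, had 34.5, 37.1 and 42.2 CPM with dBRD9-A, against 52.4, 60.9 and 47.5 CPM with DMSO (log2 fold change -0.50 ± 0.15, edgeR adjusted p = 0.051). AEN had 60.4, 74.6 and 85.9 CPM with dBRD9-A, against 96.0, 139 and 101 CPM with DMSO (-0.60 ± 0.22, edgeR adjusted p = 0.0903). In both genes the treated libraries lie below all DMSO libraries. TP53I3 had 3.57, 5.15 and 3.91 CPM with dBRD9-A, against 3.48, 2.17 and 2.10 CPM with DMSO (0.70 ± 0.23, edgeR adjusted p = 0.0691). FAS had 5.13, 5.43 and 5.12 CPM with dBRD9-A, against 4.06, 3.74 and 3.99 CPM with DMSO (0.41 ± 0.15, edgeR adjusted p = 0.0927). Both lie higher in every treated library, TP53I3 by a narrow gap. GADD45A had 21.8, 22.5 and 26.9 CPM with dBRD9-A, against 21.1, 24.5 and 19.1 CPM with DMSO, and these groups overlap.

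The H929 calls depended on a library from the other line. Without OPM2 dBRD9-A replicate 2, which enters the shared spread, the count filter and the scaling, 10 members were called higher and 7 lower. That is 32.3% and 22.6% of the 31 members, against 19.2% and 16.5% of all genes, or 35.7% of all genes together. The 4 calls above were kept. Those added on the higher side were TP53I3, ZMAT3, RRM2B, FAS, CCNG1, INPP5D and SERTAD1, with log2 fold changes of 0.26 to 0.73. Those added on the lower side were MDM2, POLH, AEN, PLK3, TRIAP1 and FBXW7, at -0.23 to -0.57. With the H929 groups fitted alone, 8 were higher and 7 lower, against 32.3% of all genes called in either direction. Leaving out H929 DMSO replicate 2 or 3, or H929 dBRD9-A replicate 1, left 2 calls, against 4.86% to 6.34% of all genes. Library size alone gave 5 higher and 0 lower, against 13.5% of all genes called.

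**Figure D3:**
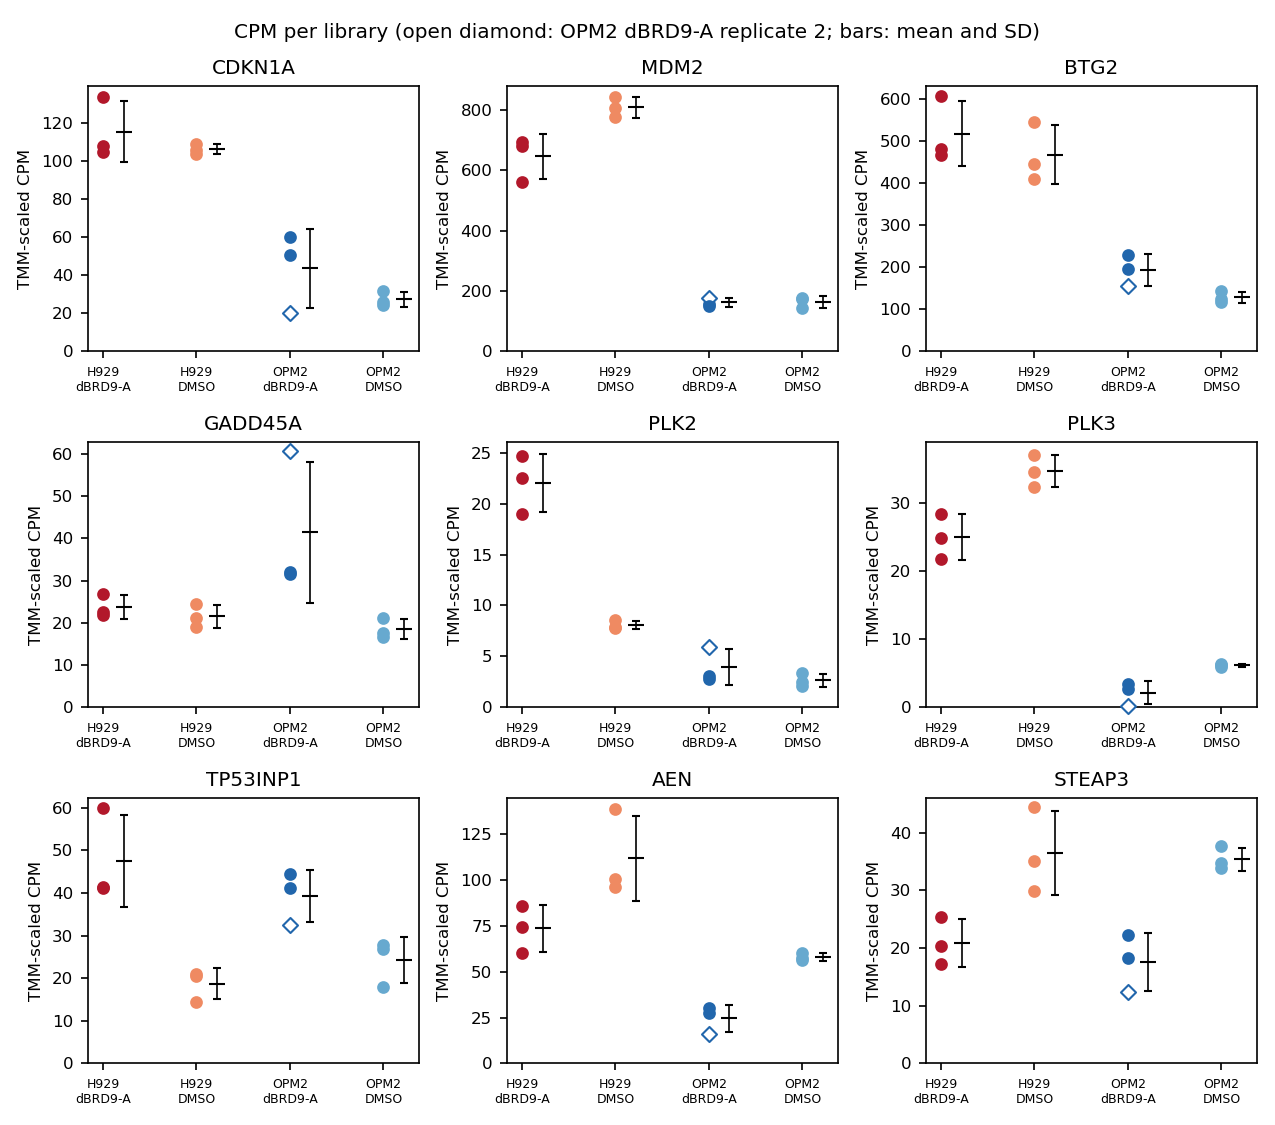
TMM-scaled CPM of 9 genes in every library, by line and treatment, with the mean and SD of each group of 3. The open diamond is OPM2 dBRD9-A replicate 2. PLK2 and TP53INP1 separate treated from DMSO libraries in H929, and for CDKN1A, PLK3 and GADD45A the diamond lies far from its mates.

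In OPM2, dBRD9-A raised 3 targets, GADD45A, TP53INP1 and BTG2, and lowered 4, AEN, STEAP3, PLK3 and INPP5D. That is 9.68% and 12.9% of the 31 tested, against 10.1% and 7.34% of all genes, and 17.4% of all genes were called in either direction. The members' median log2 fold change was 0.06, against 0.03 over all genes. Treated and DMSO libraries did not overlap for 5 members on the higher side and 8 on the lower, against 18.8% and 18.9% of all genes. MDM2 was not called, with 157, 177 and 151 CPM with dBRD9-A, against 174, 142 and 175 CPM with DMSO (log2 fold change -0.02 ± 0.12, edgeR adjusted p = 0.947).

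GADD45A had 32.1, 60.6 and 31.5 CPM in OPM2 with dBRD9-A, against 17.7, 16.7 and 21.1 CPM in OPM2 with DMSO. Replicate 2 is the highest by far, and the other treated libraries also lie above all DMSO libraries. The log2 fold change was 1.16 ± 0.23 (edgeR adjusted p = 0.00607), and 0.77 ± 0.12 without replicate 2 (adjusted p = 0.000336). BTG2 had 230.0, 154 and 195 CPM with dBRD9-A, against 143, 117 and 125 CPM with DMSO. TP53INP1 had 44.3, 32.5 and 41.1 CPM with dBRD9-A, against 27.9, 18.0 and 26.9 CPM with DMSO. Neither gene overlaps between the groups, and in both replicate 2 is the lowest treated library. BTG2 had a log2 fold change of 0.59 ± 0.17 (edgeR adjusted p = 0.0315) and lost its call in 8 of the 21 alternative fits. TP53INP1 had one of 0.70 ± 0.22 (edgeR adjusted p = 0.0453) and lost its call in 14, with adjusted p-values up to 0.175.

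AEN had 27.3, 16.1 and 30.1 CPM in OPM2 with dBRD9-A, against 57.7, 60.4 and 56.2 CPM in OPM2 with DMSO. Every treated library lies far below every DMSO library, and replicate 2 is the lowest. Its log2 fold change was -1.24 ± 0.22 (edgeR adjusted p = 0.00326), and the call held in all 21 alternative fits. STEAP3 had 18.3, 12.3 and 22.3 CPM with dBRD9-A, against 33.8, 37.7 and 34.8 CPM with DMSO. These groups are also apart, with a log2 fold change of -1.001 ± 0.22 (edgeR adjusted p = 0.00913). PLK3 had 184, 5 and 227 counts with dBRD9-A, against 376, 457 and 491 counts with DMSO. Its replicate 2 stood at 0.211 CPM beside 2.72 and 3.43 in its mates, and the groups do not overlap. The log2 fold change was -1.44 ± 0.46 (edgeR adjusted p = 0.0491) with all libraries and -1.02 ± 0.14 without that one (adjusted p = 7.83e-05), and the call was lost in 14 of the 21 fits. INPP5D had 36.9, 22.5 and 37.8 CPM with dBRD9-A, against 48.9, 44.1 and 47.2 CPM with DMSO. The fall of 0.52 ± 0.16 on the log2 scale (edgeR adjusted p = 0.0421) lost its call in 12 of the 21 fits.

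CDKN1A was divided among the treated OPM2 libraries. It had 60.0, 20.3 and 50.8 CPM with dBRD9-A, against 31.9, 24.5 and 25.7 CPM with DMSO. Replicates 1 and 3 lie above all DMSO libraries, and replicate 2 lies below them. The log2 fold change was 0.68 ± 0.29 and was not called (edgeR adjusted p = 0.121). Without replicate 2 it was 1.01 ± 0.12 and was called (adjusted p = 3.25e-05). With the GC trend removed, and all libraries kept, it was 0.83 and was called (adjusted p = 0.00483). Over the 31 tested members, the log2 distance of replicate 2 from the mean of replicates 1 and 3 ran from -3.66 for PLK3 to 1.01 for PLK2.

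Among the members not called in OPM2, ACER2, an alkaline ceramidase, had 0.961, 0.80 and 1.36 CPM with dBRD9-A, against 1.79, 1.77 and 1.92 CPM with DMSO (log2 fold change -0.78 ± 0.26, edgeR adjusted p = 0.0559). SESN1 had 40.7, 38.0 and 39.6 CPM with dBRD9-A, against 32.1, 30.1 and 33.9 CPM with DMSO (0.30 ± 0.10, edgeR adjusted p = 0.0661). Neither pair of groups overlaps, ACER2 being lower and SESN1 higher in every treated library. PLK2 had 3.12, 5.94 and 2.75 CPM with dBRD9-A, against 2.47, 3.36 and 2.14 CPM with DMSO, and replicate 2 alone exceeds all DMSO libraries (0.53 ± 0.27, and 0.13 without replicate 2). The untested GDF15 had at most 4 counts in a library, and SPATA18 had at most 4 in OPM2 and none in H929.

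Without replicate 2, 7 members were called higher and 4 lower, against 16.1% and 15.6% of all genes, or 31.7% together. The 7 calls above were kept, and CDKN1A, SESN1, DRAM1 and SERTAD1 were added on the higher side. DRAM1 rests on 10 and 14 counts in the treated libraries, against 4 in each DMSO library. Leaving out OPM2 dBRD9-A replicate 1, any OPM2 DMSO library or any H929 library left 3 or 4 calls, against 8.28% to 15.8% of all genes. Leaving out OPM2 dBRD9-A replicate 3 gave 9, against 22.3% of all genes. The OPM2 groups fitted alone left 1, AEN, against 5.82% of all genes. With library size alone 4 were higher and 2 lower, against 17.8% of all genes called. PERP had no count in any OPM2 library, and PHLDA3 had 2, 0 and 0 counts with dBRD9-A.

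**Figure D4:**
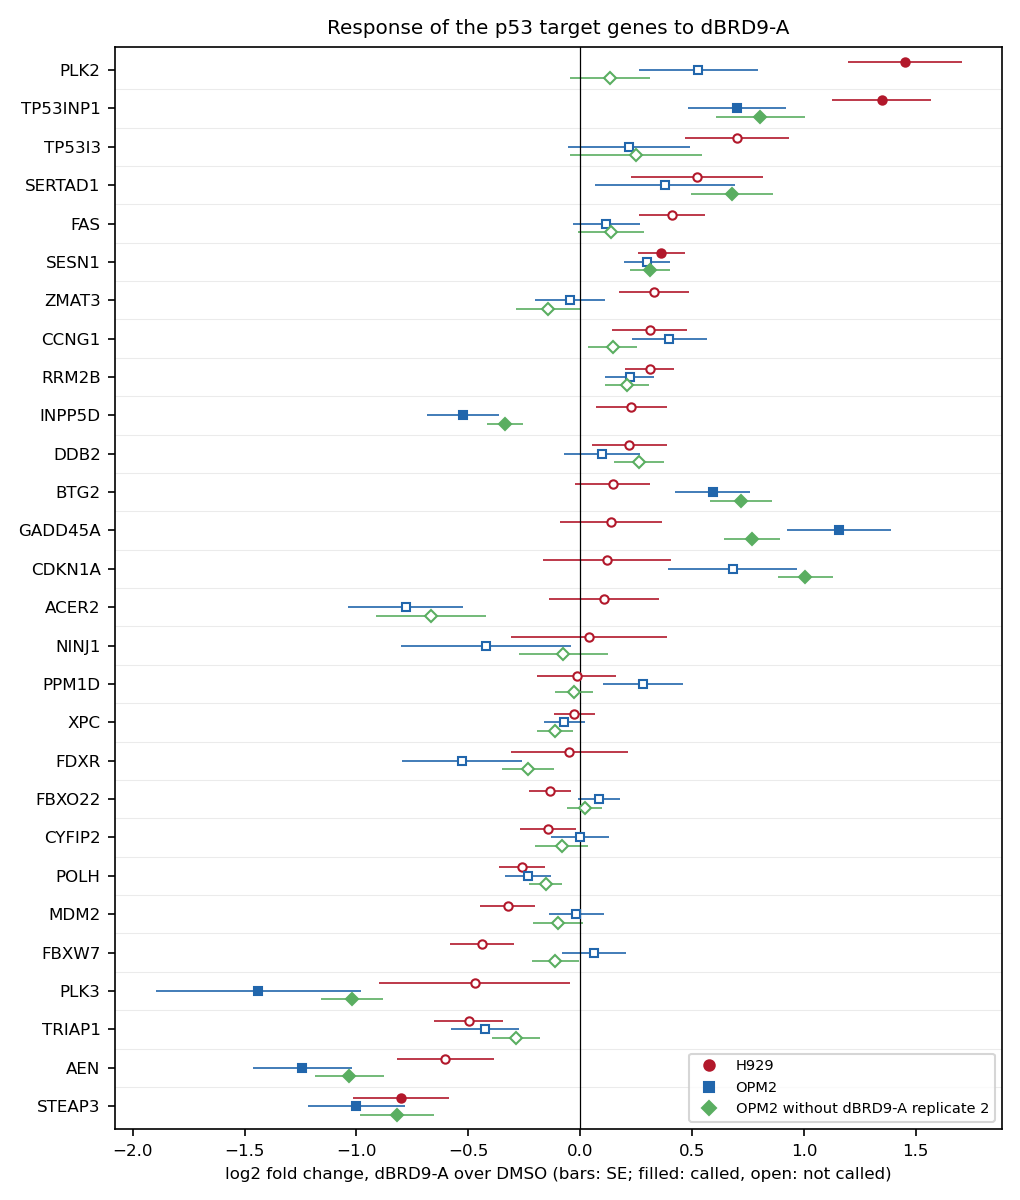
Log2 fold change of 28 genes, dBRD9-A over DMSO, with its SE, in H929 (red circles), OPM2 (blue squares) and OPM2 without dBRD9-A replicate 2 (green diamonds). Filled symbols are called, and PERP, PHLDA3 and DRAM1, which OPM2 hardly expresses, are left out. TP53INP1 is filled above 0 and STEAP3 below 0 in both lines.

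Setting both lines side by side, TP53INP1 was called higher and STEAP3 lower in each. TP53INP1 had log2 fold changes of 1.35 in H929 and 0.70 in OPM2, and STEAP3 had -0.80 in H929 and -1.001 in OPM2. The difference of the responses, H929 minus OPM2, was tested directly, and 0 of the 31 members were called by the edgeR test, against 0.579% of all genes. At an unadjusted p under 0.05 there were 5 members, PLK2, GADD45A, ACER2, INPP5D and FBXW7. The share of all genes at that level was not taken, so this count is only a description. A larger response of PLK2 in H929 (0.92 ± 0.37, edgeR adjusted p = 0.467) and of GADD45A in OPM2 (-1.02 ± 0.32, adjusted p = 0.291) therefore failed the correction. DESeq2 called 1 member, limma-voom with library weights called 5, and removal of the GC trend left 1. Over all genes these fits called 2.27%, 5.38% and 1.43%.

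Without OPM2 dBRD9-A replicate 2 the difference was called for 3 members, 2 positive and 1 negative, against 1.63% and 1.41% of all genes, or 3.04% together. PLK2 responded more in H929, by 1.35 ± 0.23 on the log2 scale (edgeR adjusted p = 0.00387), and so did INPP5D, by 0.60 ± 0.11 (adjusted p = 0.00542). CDKN1A responded less in H929 than in OPM2, at -0.85 ± 0.16 (adjusted p = 0.00889). These 3 calls rest on leaving that library out, except that limma-voom also called all 3 with it weighted, and that DESeq2 and the GC-corrected fit also called INPP5D.

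Regulators of p53 were read from a list of 30, of which 29 were tested. In H929, dBRD9-A raised 1 and lowered 2, or 3.45% and 6.90%, against 7.33% and 5.67% of all genes. In OPM2 it raised 2 and lowered 3, or 6.90% and 10.3%, against 10.1% and 7.34% of all genes. Without OPM2 dBRD9-A replicate 2 it raised 2 and lowered 6 in H929, and raised 2 and lowered 8 in OPM2, against 19.2% and 16.5% of all genes in H929 and 16.1% and 15.6% in OPM2.

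PPP1R13L, which encodes the p53 inhibitor iASPP, rose in both lines. It had 6.996, 8.67 and 6.82 CPM in H929 with dBRD9-A, against 1.68, 1.83 and 1.95 CPM in H929 with DMSO (log2 fold change 2.04 ± 0.23, edgeR adjusted p = 0.000344). It had 4.05, 2.53 and 5.10 CPM in OPM2 with dBRD9-A, against 1.05, 1.07 and 1.15 CPM in OPM2 with DMSO (1.85 ± 0.23, edgeR adjusted p = 0.000376). PRMT5, an arginine methyltransferase that modifies p53, fell in both lines, by 0.65 ± 0.11 in H929 and 0.60 ± 0.11 in OPM2 on the log2 scale. The kinase CHEK1 fell in H929 (-0.53 ± 0.11) and had -0.25 ± 0.11 in OPM2 (edgeR adjusted p = 0.139), where it was called lower without replicate 2 (adjusted p = 0.0111). Its difference between the lines was not called (-0.29 ± 0.15, adjusted p = 0.633). TP53RK, a kinase that phosphorylates p53, fell in OPM2 (-0.70 ± 0.10), and PPP1R13B, which encodes ASPP1, rose there (0.85 ± 0.13). MDM4, the partner of MDM2 that blocks p53, was called in neither line.

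In DMSO, 3 regulators were higher in H929, the damage kinase ATM (1.09 ± 0.14), the nucleolar protein NPM1 (1.59 ± 0.20), whose reads its pseudogenes can share, and the p53 relative TP63, which had 23 counts over the H929 group and none in OPM2 and passed the count filter only through H929. Lower in H929 were TP53BP2 (-1.25 ± 0.17), which encodes ASPP2, and CDKN2A (-1.46 ± 0.28), the locus of p16 and ARF. These shares are 10.3% and 6.90% of 29, against 21.4% and 15.0% of all genes. Over the 28 regulators kept in each line alone, 2 were higher and 2 lower, or 7.14% each, against 16.1% and 13.3% of genes.

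Other p53 targets gave the wider setting. Of 17 tested death genes outside the 33, dBRD9-A raised 1 and lowered 1 in H929, and raised 0 and lowered 4 in OPM2. That is 5.88% each in H929, against 7.33% and 5.67% of all genes, and 23.5% lowered in OPM2, against 7.34%. With OPM2 dBRD9-A replicate 2 left out it raised 5 and lowered 3 in H929, against 19.2% and 16.5% of all genes, and raised 0 and lowered 5 in OPM2, against 16.1% and 15.6%. APAF1, of the apoptosome, was called higher in H929 (0.51 ± 0.15, edgeR adjusted p = 0.0482), a call lost in 12 of 21 alternative fits with adjusted p-values up to 0.19. The caspase CASP6 had the largest of the 4 falls in OPM2 (-0.91 ± 0.15, edgeR adjusted p = 0.00225), and its call held in all 21 fits. The other falls, of BID, TNFRSF10A and IKBIP, lost their calls in 6, 6 and 11 of the 21 fits. PMAIP1, which encodes the BH3-only protein NOXA, was called in neither line. In DMSO 4 of the 17 were higher in H929 and 2 lower, against 21.4% and 15.0% of all genes, and 3 and 2 of the 15 that the filter keeps in each line alone, against 16.1% and 13.3%. EDA2R, a death domain receptor, had a log2 fold change of 4.21 ± 0.32. PMAIP1 went the other way, with 1.60, 1.60 and 1.68 CPM in H929, against 15.9, 15.8 and 19.8 CPM in OPM2.

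Of 46 further targets tested, dBRD9-A raised 8 and lowered 1 in H929, and raised 6 and lowered 0 in OPM2, or 17.4% raised in H929 and 13.0% in OPM2, against 7.33% and 10.1% of all genes. With OPM2 dBRD9-A replicate 2 left out it raised 12 and lowered 5 in H929, or 26.1% and 10.9%, against 19.2% and 16.5% of all genes. In OPM2 it then raised 7 and lowered 6, or 15.2% and 13%, against 16.1% and 15.6% of all genes. Of the 6 raised in OPM2 with all libraries, E2F7 and ANKRA2 lost their calls in 14 and 13 of 21 alternative fits, and CMBL, TGFA and EPHA2 kept theirs in each. Some raised genes passed the count filter only through treated libraries, so the counts that hold them are a description. EPHA2 had 106, 8 and 60 counts in OPM2 with dBRD9-A, against 3 in each OPM2 DMSO library. TRIM22 had 23, 20 and 66 counts in H929 with dBRD9-A, against 10, 15 and 7 counts with DMSO, and its call was lost in 10 of 20 alternative fits. CMBL, a hydrolase, FUCA1, the lysosomal fucosidase, and TGFA, a ligand of the EGF receptor, rose in both lines. CMBL had 2.50, 1.89 and 1.68 CPM in H929 with dBRD9-A, against 0.177, 0.160 and 0.0903 CPM in H929 with DMSO. In OPM2 it had 7.69, 7.37 and 4.38 CPM with dBRD9-A, against 0.990, 0.795 and 0.843 CPM with DMSO. FUCA1 rose by 1.26 ± 0.12 in H929 and 0.64 ± 0.12 in OPM2 on the log2 scale, and TGFA by 1.40 ± 0.21 in H929 and 1.35 ± 0.20 in OPM2. CSF1, the macrophage growth factor, fell in H929 (-0.996 ± 0.16). In DMSO 14 of these 46 were higher in H929 and 5 lower, or 30.4% and 10.9%, against 21.4% and 15.0% of all genes. Over the 40 that the filter keeps in each line alone, 9 were higher and 5 lower, against 16.1% and 13.3% of genes.

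The 24 cell cycle genes that p21 represses through the DREAM complex were read beside CDKN1A. None was called in OPM2 by the edgeR test, against 17.4% of all genes, and 1 was called without replicate 2, against 31.7%. At an unadjusted p under 0.05 there were 3, a level at which the share of all genes was not taken. In H929 1 was called lower by the edgeR test, against 5.67% of all genes. Without OPM2 dBRD9-A replicate 2, 1 of the 24 was higher and 4 were lower in H929, against 19.2% and 16.5% of all genes. Their median log2 fold change was -0.05 in H929 and -0.10 in OPM2, against 0.00 and 0.03 over all genes. The ATF4 stress response shares targets such as the sestrins with p53. Of 9 of its genes, 2 were called higher in H929, ATF3 and VLDLR, against 7.33% of all genes. The other 7 had negative fold changes in H929, and the median log2 fold change of the 9 was -0.21 in that line. Without OPM2 dBRD9-A replicate 2 a further 3 were called lower there, against 16.5% of all genes. The VLDLR call was lost in 4 of 21 alternative fits. In OPM2 ASNS and TRIB3 fell, ASNS by 1.22 ± 0.19 on the log2 scale. PPP1R15A was called higher and CHAC1 lower there, calls lost in 14 and 12 of the 21 fits, and without replicate 2 the counts were 1 higher and 4 lower. Over all genes in OPM2, 10.1% were called higher and 7.34% lower, and 16.1% and 15.6% without replicate 2.

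The BRD9 transcript had 59.2, 60.3 and 71.5 CPM in H929 with dBRD9-A, against 79.9, 103 and 79.9 CPM in H929 with DMSO. It had 67.1, 80.9 and 81.1 CPM in OPM2 with dBRD9-A, against 89.2, 86.0 and 93.9 CPM in OPM2 with DMSO. The edgeR test called it lower in H929 (-0.46 ± 0.13, adjusted p = 0.0391), a call lost in 12 of 21 alternative fits, and did not call it in OPM2 (-0.23 ± 0.13, adjusted p = 0.241). A degrader acts on the protein, so these levels are no check of the treatment.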

How the data were processed

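Total RNA (RNeasy) of OPM2 and H929 cells was made into stranded poly(A)-selected libraries, per the labels' protocols. STAR, featureCounts and the hg19/GRCh37 genome are named in the submitters' processing notes, without versions. For the counting, the strand setting was not given in the sources used here. Each deposited table holds raw counts for 51780 RefSeq transcripts, per the file headers, and a read can count for every transcript it overlaps. The TPM values deposited by the authors sum to 1000000 per library and were used only for levels per length. Of 30 samples, 12 were used, and 18 (hairpin and polysome libraries) were not analysed here.

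For each symbol the transcript with the highest mean count was taken. edgeR 4.0.16 in R 4.3.3 (TMM factors, filterByExpr, quasi-likelihood test, 1 mean per group, 8 residual degrees of freedom) was fitted to all 12 libraries and 16408 genes, with Benjamini-Hochberg adjustment over all of them. A gene was called at an adjusted p under 0.05, and between the lines also only with a log2 fold change of 1 or more in size. CPM values are scaled by TMM. The script was tested on simulated counts that held no outlying library and no GC trend, so that test does not cover these features of the data. Alternatives were RLE factors, library size alone, DESeq2 1.42.0, limma-voom with library weights (limma 3.58.1), other count filters, a replicate block, removal of the GC trend (GC known for 98.1% of genes), each library left out, groups fitted alone and, chosen after the data were seen, genes that the filter keeps in each line alone.

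The members and lists were chosen with earlier results of these data known. All 33 members were described, and of each other list up to 4 called genes per comparison, by smallest adjusted p, could be named. Named besides these were MDM4, the other regulators, genes that show a limit of the count filter and raised genes whose calls were lost in many alternative fits. Some genes of these lists are counted but not reported here. The labels do not say whether the 3 libraries of a group were grown separately. The p-values therefore reflect how these libraries vary, and that variation may be technical. The labels name no pairing of libraries by replicate number, and the values showed none, which does not exclude it. Of the members, 8 overlap exons of a gene on the other strand that is in the files, and reads of the pair cannot be told apart (MDM2, TP53I3, XPC, POLH, FAS, PLK3, FBXO22 and CYFIP2). The partners of XPC, POLH and CYFIP2 are well expressed, as given above. The other partners averaged fewer counts, 7.2 beside 24877 for MDM2, 65.1 beside 959 for PLK3 and 51.8 beside 1877 for FBXO22. For FAS they were 47.2 beside 239, and for TP53I3 55.5 beside 109.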

Additional observations from a re-analysis of the deposited data

Results flagged for a closer look

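The difference of the dBRD9-A responses, H929 minus OPM2, passed the test for 2 genes of the lists around the p53 targets. TP53RK, a kinase of p53, had a difference of 0.712 on the log2 scale (edgeR adjusted p = 0.0415), with 57.0, 49.9 and 51.8 CPM in H929 with dBRD9-A and 51.7, 55.0 and 50.9 CPM in H929 with DMSO, and 23.8, 21.9 and 23.3 CPM in OPM2 with dBRD9-A and 37.2, 37.5 and 37.9 CPM in OPM2 with DMSO. Its groups overlap in H929 and are apart in OPM2. The caspase CASP6 had a difference of 1.26 (edgeR adjusted p = 0.0241), with 26.3, 27.0 and 34.5 CPM in H929 with dBRD9-A and 23.5, 25.5 and 19.96 CPM in H929 with DMSO, and 95.8, 78.3 and 106 CPM in OPM2 with dBRD9-A and 169, 165 and 193 CPM in OPM2 with DMSO. Every treated library lies above DMSO in H929 and below it in OPM2. The call was lost in 12 of 20 alternative fits for TP53RK, with adjusted p-values up to 0.14, and in 8 of 20 for CASP6, up to 0.0849. Groups of 3 libraries were not searched for single outlying values.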

How the results depend on the processing

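None of 205 gene results reversed a call. Against 7 member calls in OPM2, DESeq2 gave 11, limma-voom 15 and the groups fitted alone 1. Against 4 in H929, DESeq2 gave 8, limma-voom 17, removal of the GC trend 11 and the groups alone 15. Against 0 for the difference of responses, DESeq2 gave 1, limma-voom 5 and GC removal 1. Leaving out 1 library gave 3 to 11 calls in OPM2, 2 to 17 in H929, 0 to 3 for the difference and 15 to 15 between the lines in DMSO, where library size alone gave 14, no count filter 16, no fold threshold 22 and genes kept in each line alone, chosen after the data were seen, 12. The cause of these shifts was not tested.

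Over all genes, OPM2 calls were 2857, against 7243 (limma-voom), 871 (alone), 4328 (GC) and 1381 to 1529 without an OPM2 DMSO library. H929 calls were 2134, against 5910, 4970 and 3662, and 812 to 1316 without H929 DMSO replicate 2 or 3 or H929 dBRD9-A replicate 1 or 2. Without OPM2 dBRD9-A replicate 2 they were 5277 and 5946. Calls of the difference were 95, against 372 (DESeq2), 882, 230, 507 without that library and 35 to 54 without most others. DMSO calls were 5960, and 9872 with no fold threshold. With library size alone the higher share of calls was 69.4% in OPM2, against 57.8%, and 71.8% in H929, against 56.4%, and the median of all genes between the lines was -0.07, against 0.05.

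The replicate block gave 6 member calls in OPM2, 3 in H929, 0 for the difference and 15 between the lines, and 33 genes for the difference. Deviations of libraries with the same number correlated at 0.24, -0.016 and -0.068 in OPM2 and -0.084, -0.19 and -0.13 in H929. These weak values show no pairing by number, and with groups of 3 libraries they cannot exclude it.

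Depth limits PERP, PHLDA3 and DRAM1 in OPM2, and GDF15 and SPATA18 everywhere. With 3 libraries per group, an effect that missed the threshold is not shown to be absent.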
